A study of Mus musculus with 19 samples.

Results

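The measurement described here is the number of ribosome footprints per RNA of each gene, compared between mouse lung adenocarcinoma (LUAD) organoids and alveolar type 2 (AT2) organoids. It covers 4622 of the 7261 genes that the study's lists of translated open reading frames (ORFs) pair with transcripts, namely those with at least 20 estimated counts in every one of 14 libraries. The libraries form 4 groups, with 4 footprint libraries of LUAD organoids, 3 footprint libraries of AT2 organoids, 4 RNA libraries of LUAD organoids and 3 RNA libraries of AT2 organoids. Organoids of both kinds carry the strain label C57BL/6, and all were plated for 48 hours and then given 100 µM cycloheximide for 5 minutes. The ORF libraries of the LUAD group are titled KP, an abbreviation that the labels do not spell out, and the sources used here give neither alleles nor the age of the animals. The series' design text counts 2 independent AT2 cultures and 3 tumour-derived organoids, but nothing says which footprint or RNA library came from which, so the p-values below measure only the spread between these libraries, which may be technical.

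A messenger RNA is translated by ribosomes that initiate near its 5′ end, move along the coding sequence and leave at the stop codon. Cycloheximide halts them on the way, and RiboLace, the method used for the footprints, pulls down ribosomes engaged in translation so that the RNA fragment each one shields can be sequenced. Footprints of a gene follow both how much of its RNA is present and how densely ribosomes occupy it. Their ratio to RNA, often called translational efficiency, is regulated in growing and stressed cells through initiation factors, through elements in the 5′ end of the RNA and through upstream ORFs. The AT2 cell is the surfactant-producing progenitor of the alveolus and a cell from which lung adenocarcinoma can arise.

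The effect is given as an interaction on the log2 scale, which is the LUAD minus AT2 difference in footprints minus the LUAD minus AT2 difference in RNA. At 0, footprints and RNA of a gene differed by the same factor. Levels are CPM, counts of a gene relative to all counts of the paired genes in that library, scaled to one effective library size. In material from many cells, fewer cells of a type and less RNA per cell cannot be told apart.

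Footprint depth ran from 4.80 to 14.25 M estimated counts in LUAD libraries and from 3.03 to 3.83 M in AT2 libraries, and RNA depth from 27.18 to 33.20 M in LUAD libraries and from 4.12 to 10.23 M in AT2 libraries. Of the 2639 genes left out, 2230 had under 20 counts in at least 1 AT2 footprint library and 1456 in at least 1 AT2 RNA library, and 931 fell short in AT2 footprints alone. At the edge of the threshold, 57 of the genes kept had a lowest count of exactly 20 and 74 genes left out had a lowest count of 19. Genes translated in LUAD were favoured by the pairing, since 2231 of the genes kept had an ORF listed in LUAD but not in AT2, 224 in AT2 but not in LUAD and 2167 in both. The 5 paired AT2 markers (of 8 listed) summed to 200 to 236 footprint CPM in LUAD libraries and to 753 to 1220 CPM in AT2 libraries, with Sftpb at 0 in LUAD footprints and Slc34a2 at 0 in all libraries but the AT2 footprints. Gut and oncofetal markers, 5 of 6 paired, summed to 346 to 492 CPM in LUAD footprints and to 16.3 to 89.6 CPM in AT2 footprints. The 2 paired macrophage markers of 6, Cd14 and Mrc1, summed to 93.5 to 114 CPM in LUAD footprints and to 4.78 to 8.73 CPM in AT2 footprints, and the only paired fibroblast marker of 6, Bgn, stood at 46.8 to 125 CPM in LUAD footprints and at 1.91 to 3.28 CPM in AT2 footprints. Markers of AT1 cells, the flat cells of the alveolus into which AT2 cells can differentiate, had 4 of 6 paired and sums of 20.7 to 33.0 CPM in LUAD footprints and 477 to 702 CPM in AT2 footprints. The only paired ciliated cell marker, Tuba1a, overlapped between the organoids, and 0 endothelial and 0 club cell markers were paired. These sums are relative to library totals without further scaling, and the part of these cell types in the results below was not tested.

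AT2 footprint library 1 stood apart. A single gene, Mettl26, took 52.1% of its paired counts, against 4.14% and 1.99% in the other AT2 footprint libraries, 0.261% to 1.37% in LUAD footprint libraries and at most 0.0184% in RNA libraries. Mettl26 itself had an interaction of -4.79 ± 1.40 that did not pass (edgeR adjusted p = 0.138) and stood at -1.36 without that library. The libraries also fell into 2 sets that deviated together from their group means across all 4 groups. Set 1 held LUAD footprint libraries 1 and 2, AT2 footprint library 1, LUAD RNA libraries 1 and 2 and AT2 RNA libraries 1 and 2. Set 2 held the other 7. AT2 footprint library 1 was thus the only AT2 footprint library of set 1, and AT2 RNA library 3 the only AT2 RNA library of set 2. The labels name no such batch, so the calls are also given within the sets.

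Footprints and RNA moved largely together between the organoids. Across the 4622 genes the footprint and RNA differences had a Spearman correlation of 0.72, a description over genes, which are not independent replicates and share libraries. Footprints passed the edgeR quasi-likelihood test in 1306 genes (28.3%, 518 higher and 788 lower in LUAD, against 25.6% of all 7078 genes tested), and RNA passed in 1701 genes (36.8%, 666 higher and 1035 lower, against 33.1%). The interaction passed in 30 genes, 0.649% of the 4622, against 0.706% of all genes tested. Of the 30, 14 were higher in LUAD, where the share among all genes tested was 0.268%, and 16 were lower, where it was 0.438%. The share of called genes was thus near the background and says nothing particular of the genes with 20 counts.

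The interaction is a noisier quantity than its parts. Its median standard error was 0.38, against 0.27 for the footprint difference and 0.27 for the RNA difference, and its values spread less, with a standard deviation of 0.61 against 0.84 and 0.98. Its median was 0.02, its quartiles were -0.35 and 0.41, and 2366 genes (51.2%) were above 0. At an unadjusted p under 0.05 there were 670 genes (14.5%, 373 higher and 297 lower), against 13.8% of all genes tested. Most genes lie near the line of equal change in the plot of footprint against RNA differences, and those called lie at its edges.

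**Figure D1:**
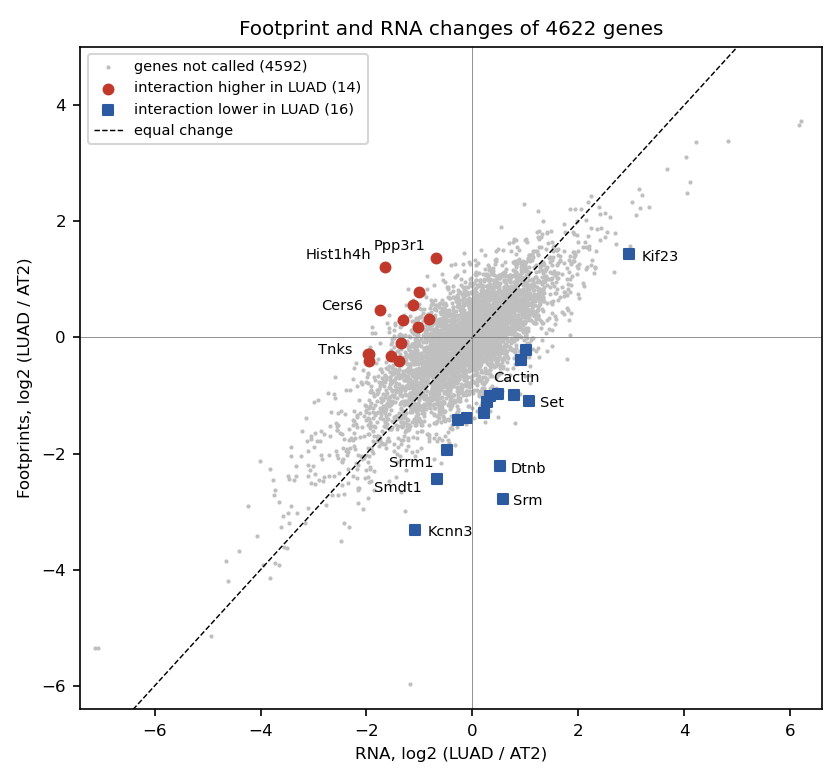
Footprint difference (vertical axis) against RNA difference (horizontal axis), both log2 LUAD over AT2, for the 4622 genes; the dashed line marks equal change. The 14 genes called higher for footprints per RNA lie left of the line with RNA differences from -1.98 to -0.68, and 15 of the 16 called lower have footprint differences below 0.

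The 30 genes took different routes. Of 858 genes whose footprints and RNA both changed in the same direction, 5 passed for the interaction (Kcnn3, Kif23, Shtn1, Smdt1 and Srrm1). Among 837 genes with RNA called and footprints not, 10 passed as higher and 2 as lower, and among 442 with footprints called and RNA not, 1 passed as higher and 7 as lower. Footprints and RNA changed in opposite directions in 6 genes, Arglu1, Cactin, Hcfc1, Hist1h4h, Set and Ranbp2, of which all but Ranbp2 (1.64 ± 0.35, edgeR adjusted p = 0.0523) passed for the interaction. In the remaining 2479 genes neither was called.

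How many genes passed turned on single libraries. Without AT2 footprint library 1 there were 266 (126 higher and 140 lower), and without AT2 RNA library 3 there were 172 (102 higher and 70 lower). All 30 genes were among the calls in both cases. Leaving out any 1 of the other 12 libraries gave 3 to 25 genes. Cactin, Srrm1 and Arglu1 were called whichever library was left out, and the other 27 genes in 2 to 9 of the 14 cases. Without AT2 footprint library 1 and AT2 RNA library 3 together, 1043 genes passed (556 higher and 487 lower), the 30 among them. The AT2 footprints left without library 1 were all of set 2, and the AT2 RNA left without library 3 all of set 1. These fits take no account of the sets, so a difference between the sets enters their interaction. To a lesser degree this also holds for the fit on all 14 libraries. There AT2 footprints have 1 library in set 1 and 2 in set 2, and AT2 RNA has 2 and 1.

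**Figure D2:**
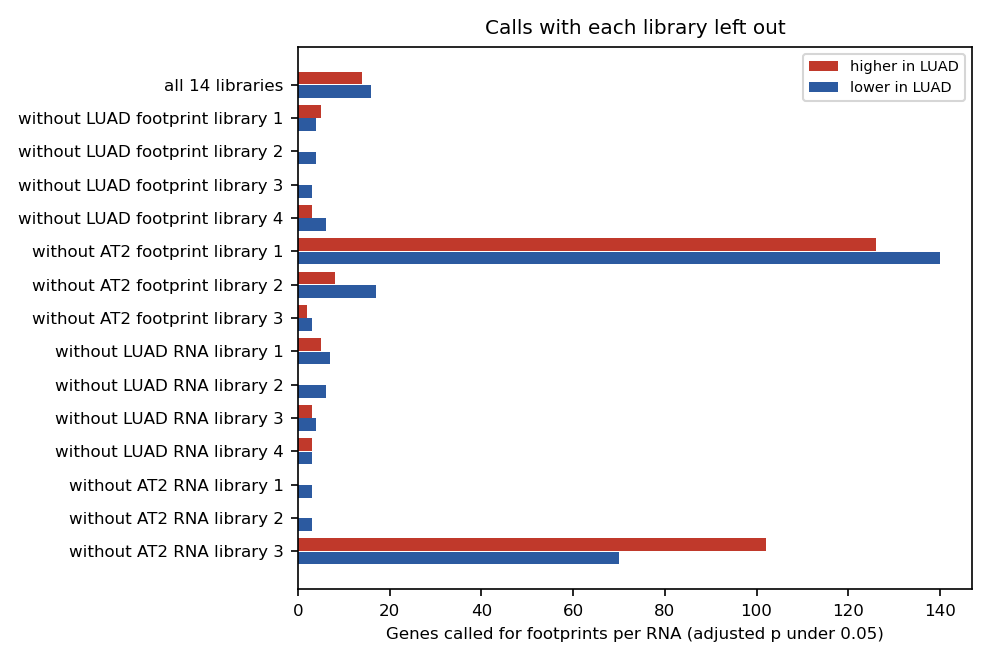
Number of genes called higher and lower in LUAD for footprints per RNA (horizontal axis) with all 14 libraries and with each library left out in turn (vertical axis). The bars without AT2 footprint library 1 (126 and 140) and without AT2 RNA library 3 (102 and 70) stand far above the 14 and 16 of all libraries.

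Within the library sets every called gene kept its direction. The 30 genes were called on these same libraries, so this agreement is not an independent check. Each set has 1 group of a single library, which had to be assumed to vary like the other groups, and in set 1 that is the AT2 footprint library that stood apart. Set 1 alone gave 737 calls (375 higher and 362 lower), with 29 of the 30 genes among them and Azin1 missing. Set 2 alone gave 520 calls (184 higher and 336 lower), with 24 of the 30 among them. Hcfc1, Tnks, Kif23, Snrnp70, Arf6 and Dazap1 were missing in set 2. With a term for the set in the model there were 273 calls (148 higher and 125 lower), the 30 included, with values from 1.01 to 3.13 for the 14 higher genes and from -3.01 to -1.10 for the 16 lower genes. The calls also depend on the transcripts summed to a gene. With protein_coding transcripts only, 42 genes passed and 20 of the 30 were among them, with Azin1, Cers6, Dazap1, Dtnb, Kif23, Mtch1, Osbpl9, Ppp3r1, Smdt1 and Tnks missing. The balance of higher and lower calls depends on what is held constant, though 0 of the 30 genes reversed under the scalings that follow. Scaling on all transcripts moved the median interaction by 0.27 and gave 19 higher and 3 lower calls, and library totals alone moved it by 0.38 and gave 10 higher and 0 lower (edgeR, with 936 genes at an unadjusted p under 0.05). Directions here are relative to the paired genes. Below, edgeR results without a named setting are those of the fit without a set term, and some genes not called there pass with it.

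The 3 genes called whichever library was left out all encode proteins with known roles in splicing, the removal of introns in the nucleus, and all had fewer footprints per RNA in LUAD. They are described together with Snrnp70 and Dazap1, a grouping made after their values were seen. Cactin, an evolutionarily conserved protein that associates with the spliceosome (mm10, chromosome 10, 81321103 to 81326251), had 62.4, 62.1, 65.8 and 63.7 footprint CPM in LUAD libraries, against 115, 109 and 153 CPM in AT2 libraries. Its RNA went the other way, with 121, 102, 91.0 and 112 CPM in LUAD, against 61.5, 61.6 and 62.7 CPM in AT2. Neither assay's groups overlapped. The footprint level per RNA level was 0.597 in LUAD and 2.03 in AT2, an interaction of -1.77 ± 0.23 (SE, n = 4 and 3 per assay, edgeR adjusted p = 0.00858).

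Srrm1, a serine- and arginine-rich coactivator of splicing (chromosome 4, 135320484 to 135353277), had 95.7, 87.3, 104 and 92.8 footprint CPM in LUAD libraries, against 380, 356 and 357 CPM in AT2 libraries. Srrm1 RNA stood at 83.9, 70.2, 70.7 and 61.8 CPM in LUAD and at 106, 105 and 89.7 CPM in AT2. Both assays fell in LUAD with no overlap, footprints by 1.94 and RNA by 0.48 on the log2 scale, which leaves an interaction of -1.46 ± 0.21 (edgeR adjusted p = 0.00858).

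Arglu1, an arginine- and glutamate-rich nuclear protein known to affect splicing (chromosome 8, 8666297 to 8690550), had 99.6, 91.0, 90.3 and 102 footprint CPM in LUAD and 233, 157 and 179 CPM in AT2, while its RNA stood at 116, 99.3, 104 and 112 CPM in LUAD and at 75.8, 82.0 and 72.1 CPM in AT2. Footprints were lower and RNA higher in LUAD in every library, and the interaction was -1.48 ± 0.22 (edgeR adjusted p = 0.0117). The value leans on the transcripts counted. Transcripts of types other than protein_coding carried 78.7% of its LUAD footprints and 43.7% of its AT2 footprints. With protein_coding transcripts only it was -2.98, and with an offset for effective transcript length it was -0.85 (edgeR adjusted p = 0.176).

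Snrnp70, the U1 snRNP protein that recognises the 5′ splice site (chromosome 7, 45376454 to 45395742), had 465, 411, 420 and 440 footprint CPM in LUAD libraries, against 1040, 752 and 825 CPM in AT2 libraries, with no overlap. RNA of Snrnp70 did not pass, at 361, 341, 239 and 384 CPM in LUAD and 254, 272 and 261 CPM in AT2. The interaction was -1.34 ± 0.25 (edgeR adjusted p = 0.0316). Dazap1, an RNA-binding protein with a known role in splicing and translation, had 60.0 to 74.1 footprint CPM in LUAD and 102 to 178 CPM in AT2, with RNA not called and an interaction of -1.40 ± 0.27 (edgeR adjusted p = 0.0376).

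The list of splicing factors, which holds Srrm1 and Snrnp70 but not the other 3 genes, had 33 measured genes. By edgeR 0 passed as higher and 2 as lower, by DESeq2 0 and 7 and by limma-voom 0 and 2, and at an unadjusted p under 0.05 there were 1 higher and 9 lower, where 7.11% and 6.65% of all genes tested were. Over all 4622 genes DESeq2 called 103 as higher and 132 as lower. Its counts for this list and those below are to be read beside these. Its median interaction was -0.15, against 0.02 over the 4622 genes, with a median footprint difference of 0.01 and a median RNA difference of 0.39. Srsf2, Srsf4 and Hnrnpl, regulators of splice site choice, had -1.12 ± 0.33, -1.09 ± 0.26 and -1.01 ± 0.27 without passing (edgeR adjusted p = 0.135, 0.081 and 0.111). The list's median stayed below that of all genes by 0.05 to 0.36 over all settings tried. Footprint levels of the called genes can be compared in the plot by library.

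**Figure D3:**
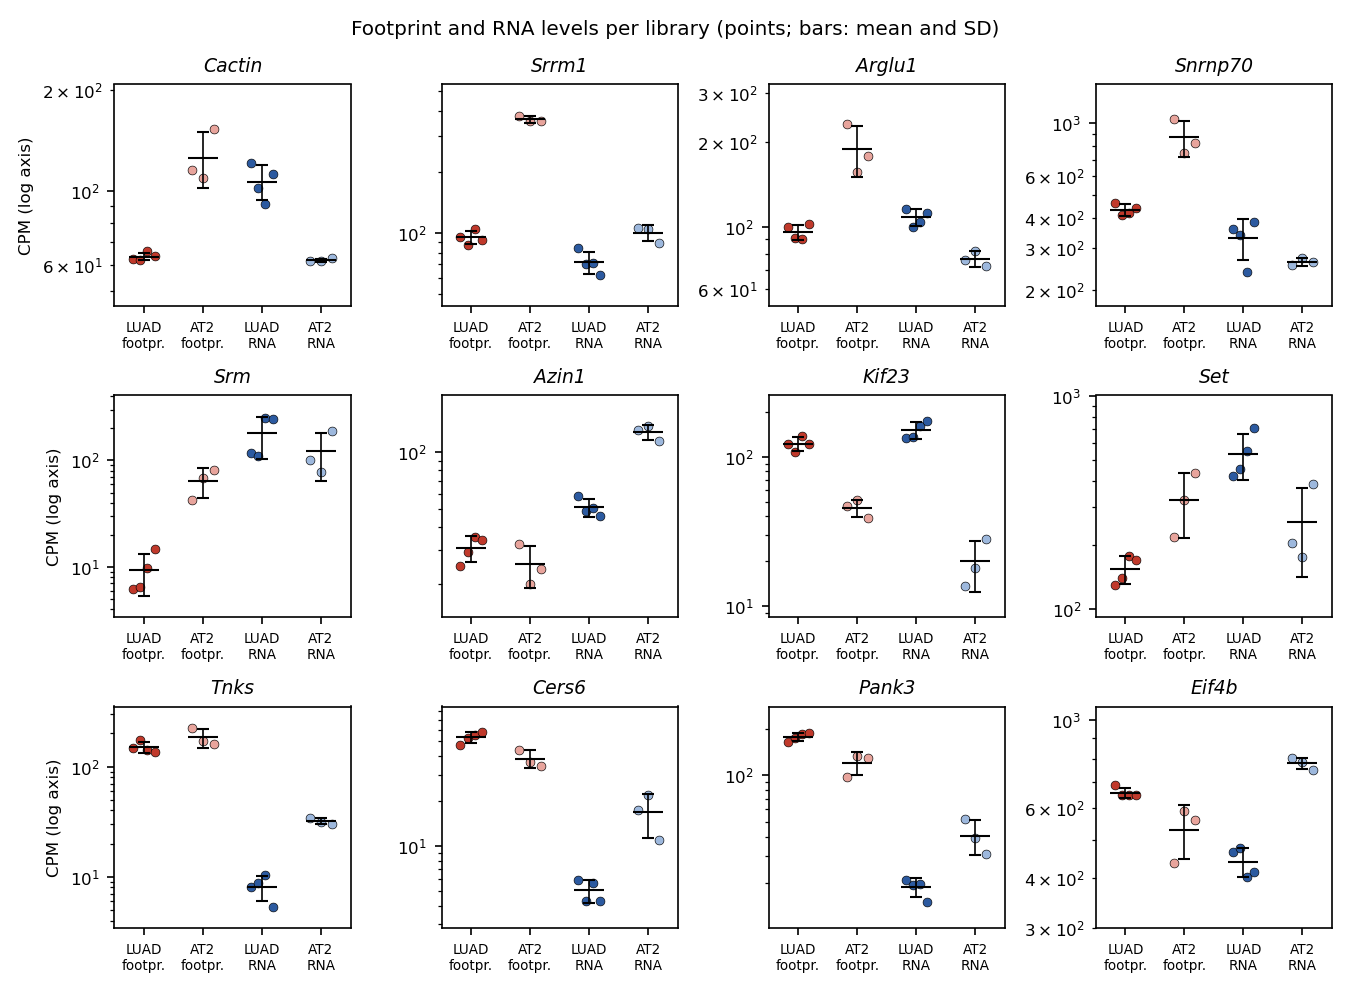
CPM (log axis) of 12 genes in each footprint and RNA library, with points for libraries and bars for the mean and SD of each group. Cactin footprints are 62.1 to 65.8 CPM in LUAD and 109 to 153 CPM in AT2 while its RNA is 91.0 to 121 CPM in LUAD and 61.5 to 62.7 CPM in AT2, and Tnks has groups that overlap in footprints and not in RNA.

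Polyamines and iron are kept in balance largely through translation and protein decay, and genes of this control gave the lowest of the 30 called values and one of the higher calls. Srm, spermidine synthase, which makes spermidine from putrescine (chromosome 4, 148591513 to 148594619), had 6.16, 6.52, 9.79 and 14.8 footprint CPM in LUAD libraries, against 42.5, 69.0 and 81.4 CPM in AT2 libraries. Its RNA stood at 117, 111, 250 and 245 CPM in LUAD and at 101, 78.3 and 189 CPM in AT2, and these groups overlapped. Srm had 0.0516 footprint CPM per RNA CPM in LUAD and 0.525 in AT2, an interaction of -3.34 ± 0.60 (edgeR adjusted p = 0.0246), and -3.18 in set 1 and -3.08 in set 2.

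Azin1, antizyme inhibitor, which protects ornithine decarboxylase from antizyme and so raises polyamine synthesis (chromosome 15, 38487430 to 38519294), had 24.9, 29.3, 35.2 and 34.1 footprint CPM in LUAD and 32.3, 19.8 and 24.0 CPM in AT2. Its RNA was 58.6, 48.6, 50.3 and 45.6 CPM in LUAD libraries, against 130, 137 and 114 CPM in AT2 libraries. The footprint groups overlapped and the RNA groups did not, and the interaction was 1.63 ± 0.30 (edgeR adjusted p = 0.0291), with 0.99 in set 1 and 1.83 in set 2. Transcripts of types other than protein_coding held 41.2% of Azin1 footprints in LUAD and 53.1% in AT2. With protein_coding transcripts only, Azin1 stood at 1.92 and did not pass (edgeR adjusted p = 0.383).

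The iron genes Fth1, Ftl1, Ireb2 and Tfrc did not pass by edgeR or DESeq2 without a term for the library set. With that term in edgeR, Fth1 stood at 0.76 and Tfrc at 1.59, and both passed (edgeR adjusted p = 0.0209 and 0.00779). Ftl1 and Ireb2 did not pass with it (edgeR adjusted p = 0.106 and 0.117). Fth1 and Ftl1, the heavy and light chains of the iron store ferritin, whose RNAs are held back by iron regulatory proteins when iron is scarce, had 0.68 ± 0.25 and 0.45 ± 0.21 (edgeR adjusted p = 0.223 and 0.382). Fth1 footprints alone did rise, with 236 to 312 CPM in LUAD and 153 to 168 CPM in AT2, while Fth1 RNA was 2980 to 4120 CPM in LUAD and 3130 to 3840 CPM in AT2. Transcripts of other types held 40.0% of Fth1 footprints in LUAD and 20.5% in AT2, and with protein_coding transcripts only the Fth1 interaction was 0.33. Ireb2, which encodes one of the iron regulatory proteins, and Tfrc, the transferrin receptor, had 1.03 ± 0.38 and 1.18 ± 0.55 (edgeR adjusted p = 0.233 and 0.363). The list of 11 measured iron and polyamine genes had a median interaction of 0.31 with 7 above 0, Azin1 called higher and Srm lower by edgeR, 1 higher and 1 lower by DESeq2 and 0 by limma-voom.

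Other genes had fewer footprints per RNA in LUAD with lower footprints, joined in Set by higher RNA. Set, a histone chaperone and inhibitor of protein phosphatase 2A (chromosome 2, 30061996 to 30072577), had 129, 139, 177 and 170 footprint CPM in LUAD and 217, 323 and 437 CPM in AT2, against RNA of 423, 452, 551 and 711 CPM in LUAD and 204, 175 and 387 CPM in AT2. Its footprints were lower and its RNA higher in LUAD without overlap, and the interaction was -2.15 ± 0.43 (edgeR adjusted p = 0.0400). Reads of processed copies of Set elsewhere in the genome can be assigned to it, so its counts are uncertain.

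Kcnn3, a calcium-activated potassium channel, had 7.37 to 18 footprint CPM in LUAD and 104 to 132 CPM in AT2, while its RNA was 9.17 to 17.7 CPM in LUAD and 23.4 to 34.5 CPM in AT2. Both fell, footprints further, with an interaction of -2.23 ± 0.45 (edgeR adjusted p = 0.0417). Mettl9, a histidine methyltransferase, had 7.47 to 10.9 footprint CPM in LUAD and 21.4 to 25.2 CPM in AT2 at RNA of 91.1 to 140 CPM in LUAD and 94.7 to 103 CPM in AT2 (interaction -1.51 ± 0.30, edgeR adjusted p = 0.0400). Trabd had 52.4 to 65.7 and 136 to 167 footprint CPM in LUAD and AT2 at RNA that did not pass (interaction -1.28 ± 0.26, edgeR adjusted p = 0.0400).

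Smdt1, the essential regulator subunit of the mitochondrial calcium uniporter, Mtch1, an outer mitochondrial membrane protein, and Dtnb, a dystrobrevin, were called at -1.76 ± 0.32, -1.16 ± 0.23 and -2.74 ± 0.51 (edgeR adjusted p = 0.0246, 0.0412 and 0.0308), but these values depend on which transcripts are summed. Transcripts of types other than protein_coding held 54.1% of Smdt1 footprints in LUAD and 81.4% in AT2, 73.0% of Mtch1 footprints in LUAD and 83.3% in AT2, and 94.5% of Dtnb RNA in LUAD and 81.8% in AT2. With protein_coding transcripts only, Smdt1 stood at -0.34 and Mtch1 at -0.34, neither passing (edgeR adjusted p = 0.850 and 0.701), and Dtnb turned to 0.44.

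In Kif23, Arf6 and Nsmce3 the RNA rose in LUAD and footprints rose less or did not pass. Kif23, a kinesin of the central spindle needed for cytokinesis (chromosome 9, 61917277 to 61946810), had 122, 108, 139 and 122 footprint CPM in LUAD and 46.7, 51.2 and 39.2 CPM in AT2, against RNA of 135, 136, 161 and 174 CPM in LUAD and 13.7, 18 and 28.2 CPM in AT2. Both rose, footprints by 1.43 and RNA by 2.95 on the log2 scale, with an interaction of -1.52 ± 0.32 (edgeR adjusted p = 0.0440). Arf6, a small GTPase of membrane recycling, had RNA of 239 to 350 CPM in LUAD and 143 to 164 CPM in AT2 at footprints that did not pass (interaction -1.31 ± 0.27, edgeR adjusted p = 0.0437). Nsmce3, a subunit of the SMC5/6 DNA repair complex, had RNA of 98.5 to 114 CPM in LUAD and 47.0 to 58.4 CPM in AT2 at footprints of 35.9 to 40.8 CPM in LUAD and 36.5 to 52.9 CPM in AT2 (interaction -1.22 ± 0.25, edgeR adjusted p = 0.0412).

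The 14 genes with more footprints per RNA in LUAD all had lower RNA. The interaction subtracts the RNA difference, so a choice of genes by the interaction favours lower RNA. All 14 had RNA differences below 0, against 2492 of all 4622 genes, with a median of -1.37. For RNA 13 passed, where 36.8% of all 4622 did. Footprints passed in 4, near the 28.3% of all 4622, and the median footprint difference of the 14 was 0.24. Tnks, tankyrase, a poly-ADP-ribosylating enzyme of telomere maintenance and Wnt signalling (chromosome 8, 34829179 to 34965690), had RNA of 8.0, 8.76, 10.3 and 5.34 CPM in LUAD, against 34.4, 31.5 and 30.2 CPM in AT2. Its footprints overlapped, at 148, 176, 142 and 135 CPM in LUAD and 224, 169 and 159 CPM in AT2. The interaction was 1.69 ± 0.30 (edgeR adjusted p = 0.0246). Transcripts of types other than protein_coding held 57.0% of Tnks footprints in LUAD and 51.5% in AT2, against 0.0% and 2.2% of its RNA, and without them the interaction was 1.48 and did not pass (edgeR adjusted p = 0.140).

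Cers6, a ceramide synthase (chromosome 2, 68861145 to 69114284), had RNA of 5.93, 4.32, 5.68 and 4.28 CPM in LUAD and 17.4, 22.1 and 11.0 CPM in AT2, and footprints of 47.5, 52.6, 55.1 and 57.8 CPM in LUAD and 44.2, 36.7 and 34.4 CPM in AT2. RNA fell while the footprint difference of 0.48 ± 0.26 did not pass (edgeR adjusted p = 0.205), although its groups did not overlap. The interaction was 2.22 ± 0.37 (edgeR adjusted p = 0.0203). Other transcript types held 36.8% of Cers6 footprints in LUAD and 50.3% in AT2, against 2.5% and 11.1% of its RNA, and without them the interaction was 2.46 and did not pass (edgeR adjusted p = 0.0970). Pank3, a pantothenate kinase of coenzyme A synthesis, gave a like picture, with RNA of 15.0 to 21.0 CPM in LUAD and 30.9 to 51.6 CPM in AT2 and footprints of 163 to 188 CPM in LUAD and 97.7 to 134 CPM in AT2 (interaction 1.68 ± 0.28, edgeR adjusted p = 0.0203).

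Luzp1, a cytoskeletal and ciliary protein, Btaf1, which removes the TATA-binding protein from DNA, and Ptgfrn, a membrane partner of tetraspanins, had RNA differences of -1.96, -1.96 and -1.35 and footprint differences of -0.28, -0.41 and -0.09, which did not pass. Their interactions were 1.68 ± 0.32, 1.56 ± 0.32 and 1.26 ± 0.24 (edgeR adjusted p = 0.0336, 0.0422 and 0.0328). Osbpl9 and Ap2b1, a lipid-transfer protein and a clathrin adaptor subunit, had 1.21 ± 0.25 and 1.21 ± 0.21, and Shtn1, an actin-linked protein of neuronal growth, 1.0 ± 0.19 (edgeR adjusted p = 0.0437, 0.0246 and 0.0354). Footprint differences lay below 0 in 6 of the 14, and Shtn1 was the only one whose fall in footprints passed.

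In 3 of the 14 genes footprints rose and that rise passed. Ppp3r1, the regulatory subunit of the phosphatase calcineurin (chromosome 11, 17159298 to 17200380), had 81.1, 82.6, 94.2 and 105 footprint CPM in LUAD and 17.0, 52.8 and 34.4 CPM in AT2 at RNA of 43.0 to 51.4 CPM in LUAD and 71.8 to 76.8 CPM in AT2. Its interaction was 2.04 ± 0.38 (edgeR adjusted p = 0.0316), and 1.11 with protein_coding transcripts only, which did not pass. Hcfc1, a chromatin-bound cofactor of transcription, had 170 to 197 footprint CPM in LUAD and 99.6 to 122 CPM in AT2, with an interaction of 1.79 ± 0.36 (edgeR adjusted p = 0.0417) that stood at 2.06 in set 1 and 0.80 in set 2.

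Hist1h4h, one of several genes for histone H4, had the highest interaction, 2.86 ± 0.60 (edgeR adjusted p = 0.0440). It had 561, 560, 1200 and 1160 footprint CPM in LUAD and 180, 416 and 530 CPM in AT2, against RNA of 2.74, 3.74, 3.11 and 4.73 CPM in LUAD and 7.24, 9.85 and 18 CPM in AT2. Replication-dependent histone mRNAs end in a stem loop and not in a poly(A) tail, and the sources used here do not say whether the RNA libraries were selected for poly(A). H4 genes have near-identical coding sequences, so footprints can be shared among copies. Only 4 of 37 paired histone genes had 20 counts in every library. Hist1h1c, a linker histone, and Hist3h2a, an H2A gene, had 1.68 ± 0.43 and 1.54 ± 0.59 (edgeR adjusted p = 0.0983 and 0.246), and the list's median was 1.61.

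Among the lists of ribosomal proteins, other TOP mRNAs, initiation factors and aminoacyl-tRNA synthetases, 1 gene passed by edgeR, which was Eif4b. Eif4b, a cofactor of the RNA helicase that unwinds 5′ ends during initiation and itself a TOP mRNA, whose 5′ terminal run of pyrimidines couples translation to growth signalling (chromosome 15, 102073773 to 102097173), had RNA of 467, 476, 403 and 415 CPM in LUAD and 802, 784 and 750 CPM in AT2. Its footprints were 687, 648, 649 and 648 CPM in LUAD libraries, against 437, 592 and 561 CPM in AT2 libraries. Neither set of groups overlapped, only the RNA passed, and the interaction was 1.14 ± 0.21 (edgeR adjusted p = 0.0302).

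No other gene of the 14 measured TOP mRNAs outside the ribosome passed by edgeR or limma-voom, while DESeq2 called 2, Eif4b and Eef2 (DESeq2 adjusted p = 0.0367 for Eef2), and their median was 0.21. That median fell below the median of all genes without AT2 footprint library 1 and without AT2 RNA library 3. The elongation factors Eef1a1 and Eef2 had 0.39 ± 0.34 and 0.48 ± 0.22 (edgeR adjusted p = 0.668 and 0.369). Among 20 measured ribosomal protein genes of 78 listed, 0 passed by edgeR, DESeq2 or limma-voom, 0 did at an unadjusted p under 0.05, and the median was -0.15. Relative to all genes, that median turned positive in set 2 alone (0.27) and without AT2 footprint library 2 (0.01). It also turned once the length trend described below was removed (0.11). The 30 measured initiation factors ran from -1.09 for Eif4ebp1 to 1.21 for Eif4ebp2, with a median of -0.01 and 0 passing by edgeR or limma-voom, 1 higher by DESeq2, and 2 higher and 1 lower at an unadjusted p under 0.05. Eif4g1, the scaffold of the cap-binding complex, had 1.02 ± 0.27 and Eif4ebp1, which blocks cap binding, -1.09 ± 0.39 (edgeR adjusted p = 0.104 and 0.219).

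Cell cycle genes, at a median of -0.60 over 29 genes, and the 4 mitochondrially encoded genes, at -0.59, lay lowest of the 25 lists, and which was lower turned with the setting. Of the cell cycle genes, 26 passed as higher for RNA and 12 for footprints, where 16.3% and 12.9% of all genes tested did. Their median RNA and footprint differences were 1.81 and 1.14, and only 4 had an interaction above 0. For the interaction Kif23 alone passed by edgeR, DESeq2 called 2 as lower, Kif23 and Hmmr, and limma-voom called 0. Hmmr, a spindle assembly protein, had -1.86 ± 0.47 with 107 footprint CPM on average in LUAD and 209 in AT2 (edgeR adjusted p = 0.0941, DESeq2 adjusted p = 0.00552). Mki67, the proliferation marker Ki-67, had -0.12 ± 0.37 (edgeR adjusted p = 0.925), and its sign turned under several settings. The list median lay below that of all genes under every setting tried, by 0.11 to 1.62. Relative to all genes it was -0.62 with all libraries and no set term. It was smaller in size at -0.11 in set 1 alone, -0.17 in set 2 alone and -0.35 with the set as a term. The 1.62 came from the fit without AT2 footprint library 1 and AT2 RNA library 3 together.

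Ribosome biogenesis and mitochondrial ribosome genes also lay low, with 0 genes passing by edgeR or limma-voom and, by DESeq2, 0 and 2 as lower. The 34 measured biogenesis genes had a median interaction of -0.48. For RNA 17 were called higher and for footprints 5, where 16.3% and 12.9% of all genes tested were, so the footprint count was near that share. At an unadjusted p under 0.05 there were 3 lower and 0 higher, where 6.65% and 7.11% of all genes tested were. Gnl3, nucleostemin, was the lowest, at -1.80 ± 0.71 (edgeR adjusted p = 0.267), and stood at 0.08 in set 1 alone, where the list's median too lay above that of all genes, by 0.06. The 31 mitochondrial ribosomal protein genes had a median of -0.44 with 5 lower at an unadjusted p under 0.05, Mrps27 lowest at -1.41 ± 0.49 (edgeR adjusted p = 0.196). Their median lay 0.10 to 0.86 below that of all genes under every setting, with 0.10 once the length trend described below was removed. Nuclear genes of oxidative phosphorylation had a median of -0.21 with 12 of 55 above 0, but not within set 1 alone or once the length trend described below was removed, when it lay above the median of all genes.

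Lysosome genes leaned the other way. Of 35 measured, 27 had an interaction above 0 and the median was 0.36, with RNA called lower in 22 and footprints in 13, where 16.8% and 12.7% of all genes tested were. The median RNA difference was -0.89. Because the interaction subtracts the RNA difference, the interaction and RNA medians of this and every other list are not independent. Scarb2, a lysosomal membrane protein, and Atp6v1a, a catalytic subunit of the proton pump, had 1.15 ± 0.25 and 1.21 ± 0.32 (edgeR adjusted p = 0.0540 and 0.107), and 0 of the list passed by edgeR, 3 as higher by DESeq2 and 1 as higher by limma-voom, with 6 higher and 0 lower at an unadjusted p under 0.05. The list's median lay above that of all genes under every setting, by 0.07 to 0.45. Actin and adhesion genes had a median of 0.32 over 39 genes with 0 passing by edgeR or limma-voom, 1 higher by DESeq2 and 7 higher at an unadjusted p under 0.05, Cdh1 (E-cadherin) at 0.96 ± 0.28 (edgeR adjusted p = 0.144), but the median lay 0.17 below that of all genes in set 2 alone. AT2 identity genes had a median of 0.31 over 14 genes. It lay above that of all genes under every setting, by 0.09 to 0.44, with 0.09 once the length trend described below was removed. By edgeR or limma-voom 0 passed, and by DESeq2 1 as higher, Scd1 (DESeq2 adjusted p = 0.0186). Abca3, the surfactant lipid transporter, had 1.08 ± 0.37 and Scd1, a fatty acid desaturase, 1.14 ± 0.31 (edgeR adjusted p = 0.197 and 0.121).

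Of the stress and signalling lists 0 genes passed by edgeR or limma-voom. The 21 measured integrated stress response genes had a median of -0.33, which lay 0.01 above that of all genes without AT2 footprint library 1, with 0 passing by DESeq2 and 0 at an unadjusted p under 0.05, and Atf4, the transcription factor whose own translation is set by upstream ORFs, had -0.45 ± 0.55 (edgeR adjusted p = 0.767). The unfolded protein response list had a median of 0.29 over 25 genes, with 2 higher and 1 lower by DESeq2 and 3 higher and 3 lower at an unadjusted p under 0.05. Atf6, a sensor of the endoplasmic reticulum, had 1.18 ± 0.31 (edgeR adjusted p = 0.101, DESeq2 adjusted p = 0.0119) at footprints that rose. Myc, a transcription factor of growth, and the mTOR activator Rheb had -0.46 ± 0.39 and -1.02 ± 0.23 (edgeR adjusted p = 0.656 and 0.0608), and Rheb passed by DESeq2 (adjusted p = 0.000115). Among the lists not described above, 0 genes passed by edgeR and medians were -0.59 for 4 mitochondrially encoded genes, -0.31 for 29 zinc finger and short-lived regulators, -0.28 for 20 aminoacyl-tRNA synthetases, -0.25 for 22 RAS-MAPK signalling genes, -0.15 for 32 proteasome genes, -0.08 for 25 genes of secretory translocation, -0.02 for 17 glycolysis and hypoxia genes, 0.08 for 23 cholesterol synthesis genes and 0.29 for 9 genes of MHC class I presentation. The median of 26 chaperones was 0.00. Between them these lists held 11 genes higher and 5 lower at an unadjusted p under 0.05, 1 higher and 2 lower by DESeq2 and 0 by limma-voom. Relative to all genes, the sign of the median held under every setting for the short-lived regulators and the RAS-MAPK list, and turned under at least 1 setting for the other 8.

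**Figure D4:**
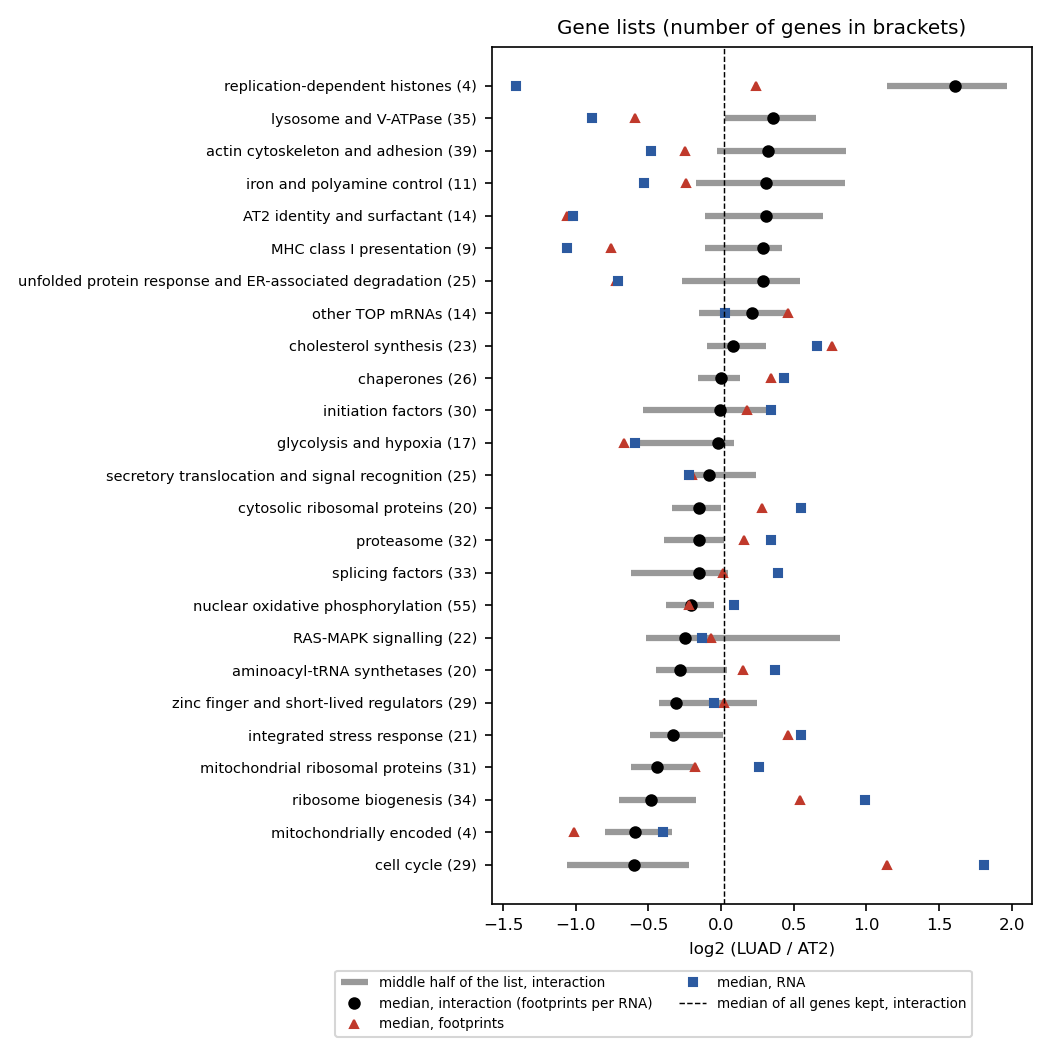
Median log2 difference, LUAD over AT2, of 25 gene lists for footprints per RNA (circles, with a bar between the quartiles of the list), footprints (triangles) and RNA (squares). Cell cycle genes lie at -0.60 for footprints per RNA with RNA at 1.81 and footprints at 1.14, and lysosome genes at 0.36.

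The interaction ran with transcript length, which the choice of genes did not use. Transcript length and the interaction had a Spearman correlation of 0.52 across the 4622 genes, a description over genes that share libraries. The same correlation was -0.30 for the RNA difference and 0.05 for the footprint difference. In 5 groups of about equal size by transcript length, ordered from the shortest (315 to 1735 bases) to the longest (4806 to 19341 bases), the median interaction was -0.31, -0.17, -0.02, 0.20 and 0.59. Median RNA differences were 0.22, 0.12, -0.03, -0.26 and -0.56, and median footprint differences lay between -0.10 and 0.02 throughout. Coding length and 3′ UTR length had correlations of 0.36 and 0.37 with the interaction, and 5′ UTR length 0.12.

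The called genes followed the same order. The 14 higher genes had a median transcript length of 5763 bases and the 16 lower genes 2298 bases, against 2976 bases over all 4622. Of the higher calls, 8 lay in the longest of the 5 groups and 1 in the shortest, and of the lower calls, 1 lay in the longest and 4 in the shortest. Upstream ORFs, which can divert ribosomes from the main coding sequence, were listed for 0 of the 14 higher genes, 1 of the 16 lower genes and 192 (4.15%) of all 4622.

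Per library, the median level of the longest group minus that of the shortest, each relative to the gene's mean over libraries, was 1.49, 1.53, 0.83 and 0.84 on the log2 scale in LUAD footprint libraries and 1.72, 0.71 and 0.73 in AT2 footprint libraries. For RNA it was -1.02, -1.09, -1.81 and -1.80 in LUAD libraries and -0.43, -0.47 and -1.20 in AT2 libraries. With the sets pooled, the means were 1.17 ± 0.39 in LUAD footprints and 1.05 ± 0.577 in AT2 footprints (SD, n = 4 and 3, exact two-sided permutation p = 0.914), and -1.43 ± 0.434 in LUAD RNA and -0.70 ± 0.433 in AT2 RNA (exact two-sided permutation p = 0.171). This pooled test doubles the smaller tail, so its p cannot get as low as 0.0286, the share of a single split of the libraries. Much of this spread ran with the library sets. Within either set every LUAD RNA library lay below every AT2 RNA library, with means of -1.06 in LUAD and -0.45 in AT2 in set 1 and of -1.81 and -1.20 in set 2, a difference of -0.61 in both. Permuting the labels within the sets gave an exact two-sided p of 0.0556 for RNA, the smallest that the 18 arrangements allow, and of 0.667 for footprints. The sets were drawn from the values of these same libraries, and which libraries share a culture is not known. The p within sets therefore does not measure a spread between cultures. The correlation of length and interaction was 0.26 in set 1 alone, 0.37 in set 2 alone and 0.41 with the set as a term.

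**Figure D5:**
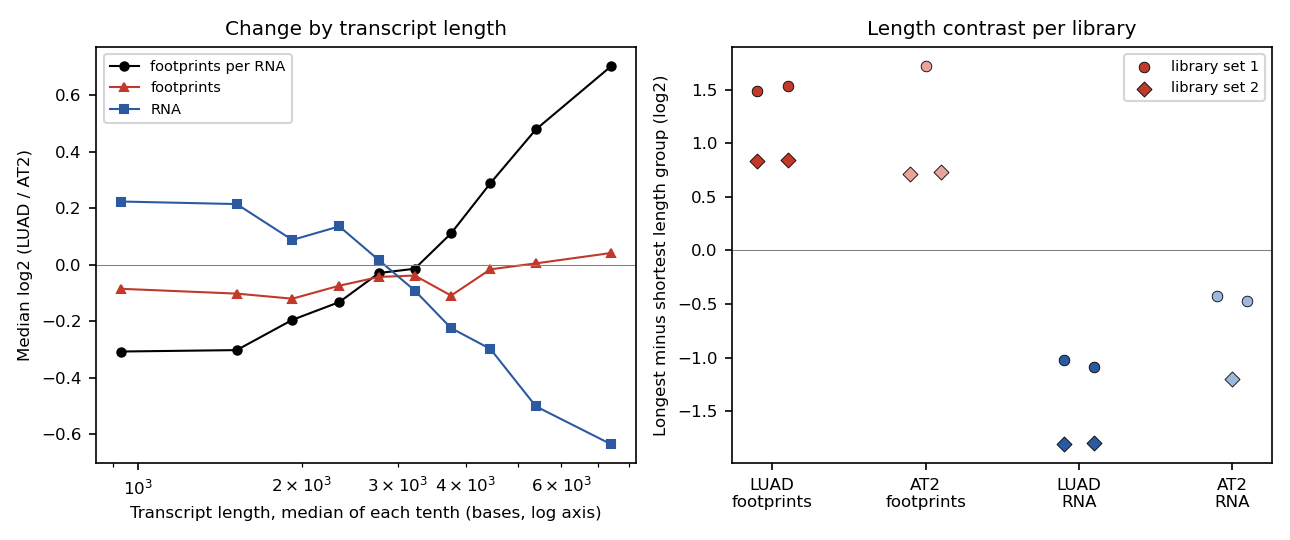
Left, median log2 difference (LUAD over AT2) in 10 equal groups by transcript length (horizontal log axis, bases) for footprints per RNA, footprints and RNA; right, longest minus shortest of 5 length groups in each library (log2), with the library set by marker. RNA declines with length and footprints stay near 0, and RNA values are -1.81 to -1.02 in LUAD and -1.20 to -0.43 in AT2.

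Once a smooth trend of level on transcript length was removed in each library, the correlation was 0.02 and 20 genes passed (6 higher and 14 lower), 14 of them among the 30. Called in both were Cactin, Srrm1, Arglu1, Srm, Set, Kcnn3, Smdt1, Mtch1, Dtnb, Trabd, Azin1, Hist1h4h, Osbpl9 and Ppp3r1. Tnks, Cers6, Pank3, Luzp1, Btaf1, Hcfc1, Ptgfrn, Ap2b1, Shtn1 and Eif4b kept their direction at 0.69 to 1.56 without passing. Among the lower genes Kif23, Mettl9, Snrnp70, Dazap1, Arf6 and Nsmce3 no longer passed. What in the organoids or the libraries gives RNA this dependence on length was not tested.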

How the data were processed

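The deposited footprint and RNA tables give, for each transcript, estimated counts, TPM and effective length. Per the submitters' processing notes the authors used kallisto, and its version and transcript set are not known here. The labels give RNA and footprint libraries one extraction protocol, so how RNA libraries were made is not known here. Deposited TPM values served in an alternative only. The ORF lists, on mm10 per the submitters' processing notes, supplied gene names, transcript types, lengths and coordinates, and their other values were not used.

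Estimated counts were summed to genes through 22509 paired transcripts of 118489, which hold 65.0% to 70.0% of a library's counts, and rounded. One edgeR 4.0.16 model (R 4.3.3) with TMM scaling, the filterByExpr filter, a robust quasi-likelihood F test and 4 group means was fitted to 14 libraries and 7078 genes. The contrast was the LUAD minus AT2 difference in footprints minus that in RNA, Benjamini-Hochberg adjusted over all 7078 genes, called at an adjusted p under 0.05. The standard error is the log2 value over the root of F. Alternatives used DESeq2 1.42.0 and limma 3.58.1. The fit was tested on simulated data. No replicates agreed within sampling noise (lowest mean chi-square 5.65).

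Genes were named by rule as the 10 with the largest interaction in each direction past the test, up to 2 called per list and direction, and a fixed set of genes, of which only part is described; the other called genes and the list examples were chosen after their values were seen. The genes kept and the lists were chosen with earlier results of these data known. Counting error and library differences both enter the standard errors, and the AT2 footprint libraries were the thinnest.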

Additional observations from a re-analysis of the deposited data

Results flagged for a closer look

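Among 118 groups of 4 libraries examined for a value far from the others, 4 were picked out; chance alone picks out about 1 in 20 groups. Eif4b footprints in LUAD stood at 687 CPM in library 1, against 648 to 649 CPM in the other 3. Ap2b1 RNA in LUAD stood at 86.2 CPM in library 1, against 77.5 to 78.0 CPM. Trabd RNA in LUAD stood at 57.1 CPM in library 2, against 82.1 to 87.1 CPM. The total of LUAD footprint library 1 was 4.80 M estimated counts, against 13.3 to 14.2 M.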

How the results depend on the processing

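Of 1020 values of the 30 called genes under 34 other settings, 600 kept direction and call, 419 kept direction only and 1 reversed, Dtnb at 0.44 with protein_coding transcripts only. Against 14 higher and 16 lower calls, DESeq2 gave 103 and 132, genes with at least 50 counts in every library 9 and 11, an effective length offset 30 and 27, protein_coding transcripts 22 and 20, all-transcript scaling 19 and 3, library totals 10 and 0, and removal of the length trend 6 and 14. The deposited TPM in limma gave 2 and 0 at a pseudocount of 1 and 0 and 0 at 0.1, with 767 genes at an unadjusted p under 0.05. The library set as a term gave 148 and 125, set 1 alone 375 and 362, set 2 alone 184 and 336, and leaving out AT2 footprint library 1 and AT2 RNA library 3 together 556 and 487. Leaving out 1 library at a time gave 0 to 126 higher and 3 to 140 lower calls. With AT2 footprint library 1 or AT2 RNA library 3 left out, a difference between the sets enters the interaction, and to a lesser degree it does so with all libraries and no set term. Why the counts moved was not tested.

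The labels do not say that the numbers pair the libraries, and they were not taken as pairs. Footprint and RNA libraries of one number deviated together in LUAD (correlation 0.60 to 0.66) but not in every AT2 pair (0.40, -0.36 and 0.42). LUAD footprint and RNA libraries of unlike number within a set did so to a like degree (0.56 to 0.66), so the LUAD values do not single out the number. A replicate block on the number gave 37 and 47 calls, and a block on tissue and number 29 and 34.

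Genes not called changed sign in a few settings. Atf4 stood at 0.03 with library totals, 0.04 and 0.05 with TPM, and 0.01 in set 2 alone, against -1.17 in set 1 alone. Mki67 stood at 0.12 with all-transcript scaling, 0.21 with library totals, 0.69 and 0.55 with TPM, 0.66 in set 2 alone, and -0.53 to 0.12 with 1 library left out. Myc stood at 0.37 and 0.38 with TPM, and Gnl3 at 0.08 in set 1 alone. Depth limits which genes were examined, since 931 genes fell short of 20 counts in AT2 footprints alone; its part in the number of calls was not tested.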
